A study of Mus musculus with 24 samples.

Results

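Small nucleolar RNAs and a few other small RNAs that do not code for protein were followed in the lungs of mice over the first weeks after birth. The set held every array row annotated to exactly 1 gene whose symbol began with Snora, Snord, Rnu, Rny or Vaultrc and a number, with the brightest row kept for a gene with several. It came to 59 of the 19938 genes measured: 20 box H/ACA small nucleolar RNAs (Snora), 31 box C/D small nucleolar RNAs (Snord), 5 genes of the Rnu series, 2 Y RNAs (Rny) and 1 vault RNA (Vaultrc5). Total RNA from the left lobe of male mice of strain C57Bl/6N Tac, kept free of specific pathogens and untreated, had been hybridized to 24 Affymetrix Mouse Gene ST arrays. The mice carried the Scnn1b transgene (Scnn1b-Tg), which makes airway club cells express the beta subunit of the epithelial sodium channel and leaves the airway surface dehydrated and rich in mucus, or were wild type (WT). Each genotype was sampled on postnatal day (PND) 0, 3, 10 and 42 with 3 arrays per group, and the animals on PND 0 were under a day old. Each array held RNA pooled from several mice, except that the labels list 1 animal for Scnn1b-Tg replicate 3 at PND 42. The values are whole-lung signals, so fewer cells of a type and less RNA per cell cannot be told apart.

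Box C/D RNAs guide the methylation of ribose and box H/ACA RNAs guide the change of uridine to pseudouridine, in both cases mostly on ribosomal RNA, and a few members of each class are needed for cutting the ribosomal RNA precursor instead. In mammals most of them are trimmed out of the introns of other genes, many of which code for ribosomal proteins or for spliced transcripts that make no protein. The Rnu genes make the RNAs of the spliceosome (U5, U6 and the minor-class U12), the U7 RNA that trims histone messages, and U3, a box C/D RNA by structure. Y RNAs are bound by the Ro60 protein, and vault RNA is a part of the vault particle. These last RNAs and U6 are made by RNA polymerase III.

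In the reference annotation 51 of the 59 genes lay within another gene, 41 different genes in all, and 8 did not (Rnu12, Rnu3a, Rnu6, Rnu7, Rny1, Rny3, Snord118 and Vaultrc5). Of the 51, 21 lay in genes of ribosomal proteins, 14 in genes that make no protein and 16 in other protein-coding genes. Most RNAs in genes that make no protein rose between PND 0 and PND 3, as described further on, so the start sites of 6 such containing genes are shown. Each line gives 40 bases before the annotated start and 20 bases from the start on (RefSeq, GRCm38.p6, sense strand), and capitals mark the longest unbroken run of C or T that was at least 6 bases long and touched the 10 bases on either side of the start.
Snhg12 (holds Snora16a and Snora44), chr4:132308638-132308697, plus strand: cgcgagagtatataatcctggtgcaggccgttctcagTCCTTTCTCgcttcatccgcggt
Snhg1 (holds Snord22), chr19:8723447-8723506, plus strand: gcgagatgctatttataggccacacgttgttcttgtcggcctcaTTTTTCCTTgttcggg
2410006H16Rik (holds Snord49a and Snord49b), chr11:62602837-62602896, plus strand: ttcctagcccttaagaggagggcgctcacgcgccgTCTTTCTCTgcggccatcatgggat
Gas5 (holds Snord47), downstream start, chr1:161035126-161035185, plus strand: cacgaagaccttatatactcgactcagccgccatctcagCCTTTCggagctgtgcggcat
Gm36220 (holds Snord104), chr11:106500875-106500934, plus strand: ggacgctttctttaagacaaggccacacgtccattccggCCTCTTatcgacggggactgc
Snhg3 (holds Snora73a and Snora73b), chr4:132353667-132353726, minus strand: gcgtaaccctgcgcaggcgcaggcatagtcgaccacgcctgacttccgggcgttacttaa
Genes of ribosomal proteins and many genes that carry small nucleolar RNAs are known for starts of this pyrimidine-rich kind. Such a run was found at an annotated start of 17 of the 30 containing genes that had a window (56.7%) and of 8833 of 27025 genes in the whole table (32.7%), searched on the sense strand only. It was found at the shown starts of Snhg12, Snhg1, 2410006H16Rik, Gas5 and Gm36220 and not at that of Snhg3. The upstream annotated start of Gas5, which is not shown, had no such run. 1110038B12Rik, which holds Snord52 and is not shown either, had a run of 7 bases. A match describes the letters of the window and nothing more.

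Values are log2 signals after the authors' normalization, and a difference of 1 is a change of 2-fold. A gene was called changed where its p from limma, adjusted by Benjamini-Hochberg over all 21789 rows with 1 gene, was 0.05 or less and the change was at least 2-fold, and "rose" and "fell" are used of such genes only. Counts at an unadjusted p under 0.05 are given without the share of all rows and are not read as results. From PND 0 to PND 3 that share was large. In Scnn1b-Tg lungs a limma p of 0.024 (Rpl23) still had an adjusted p of 0.048. Scnn1b itself read 9.62 to 10.94 in the 12 Scnn1b-Tg arrays and 6.37 to 8.22 in the 12 WT arrays, without overlap. Of 7 lung epithelial markers, 6, among them Sftpc and Scgb1a1, had group means between 10.18 and 13.97, those of Nkx2-1 were 5.58 to 7.02, and Ptcra and Rag1, which mark the thymus, stayed between 3.74 and 4.30. The small RNAs varied more between arrays of a group than other genes did, with a median SD within groups of 0.417 for the 59 members and 0.171 for all 21789 rows. At PND 42, 2 arrays stood apart for these RNAs: Scnn1b-Tg replicate 3, the pool of 1 animal, was the highest of its group for 56 of the 59 genes, and WT replicate 2 the lowest for 53. Scnn1b-Tg replicate 1 at PND 42 was the lowest of its group for 52, as was Scnn1b-Tg replicate 3 at PND 3. Counts of rises and falls that rest on the PND 42 arrays are therefore also given without Scnn1b-Tg replicate 3 or WT replicate 2, or as a range with each array left out. Values of members named for PND 42 against PND 0 are treated in the same way where these arrays change them.

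Between PND 0 and PND 3 many of the small RNAs rose, and most of them did so in both genotypes. In Scnn1b-Tg lungs 28 of the 59 genes rose at PND 3 relative to PND 0 and 3 fell, where 2.26% of all rows rose and 8% fell. In WT lungs 25 rose and 2 fell, where 1.96% of all rows rose and 7.79% fell. The median change of the 59 was 1.00 in Scnn1b-Tg and 0.91 in WT lungs, beside 0.07 and 0.06 for all rows. The same 24 genes rose in both genotypes and the same 2, Snord14e and Snord37, fell in both. Of the 31 and 27 calls of this interval, 28 and 25 were kept under every alternative processing and with each array left out in turn.

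**Figure D1:**
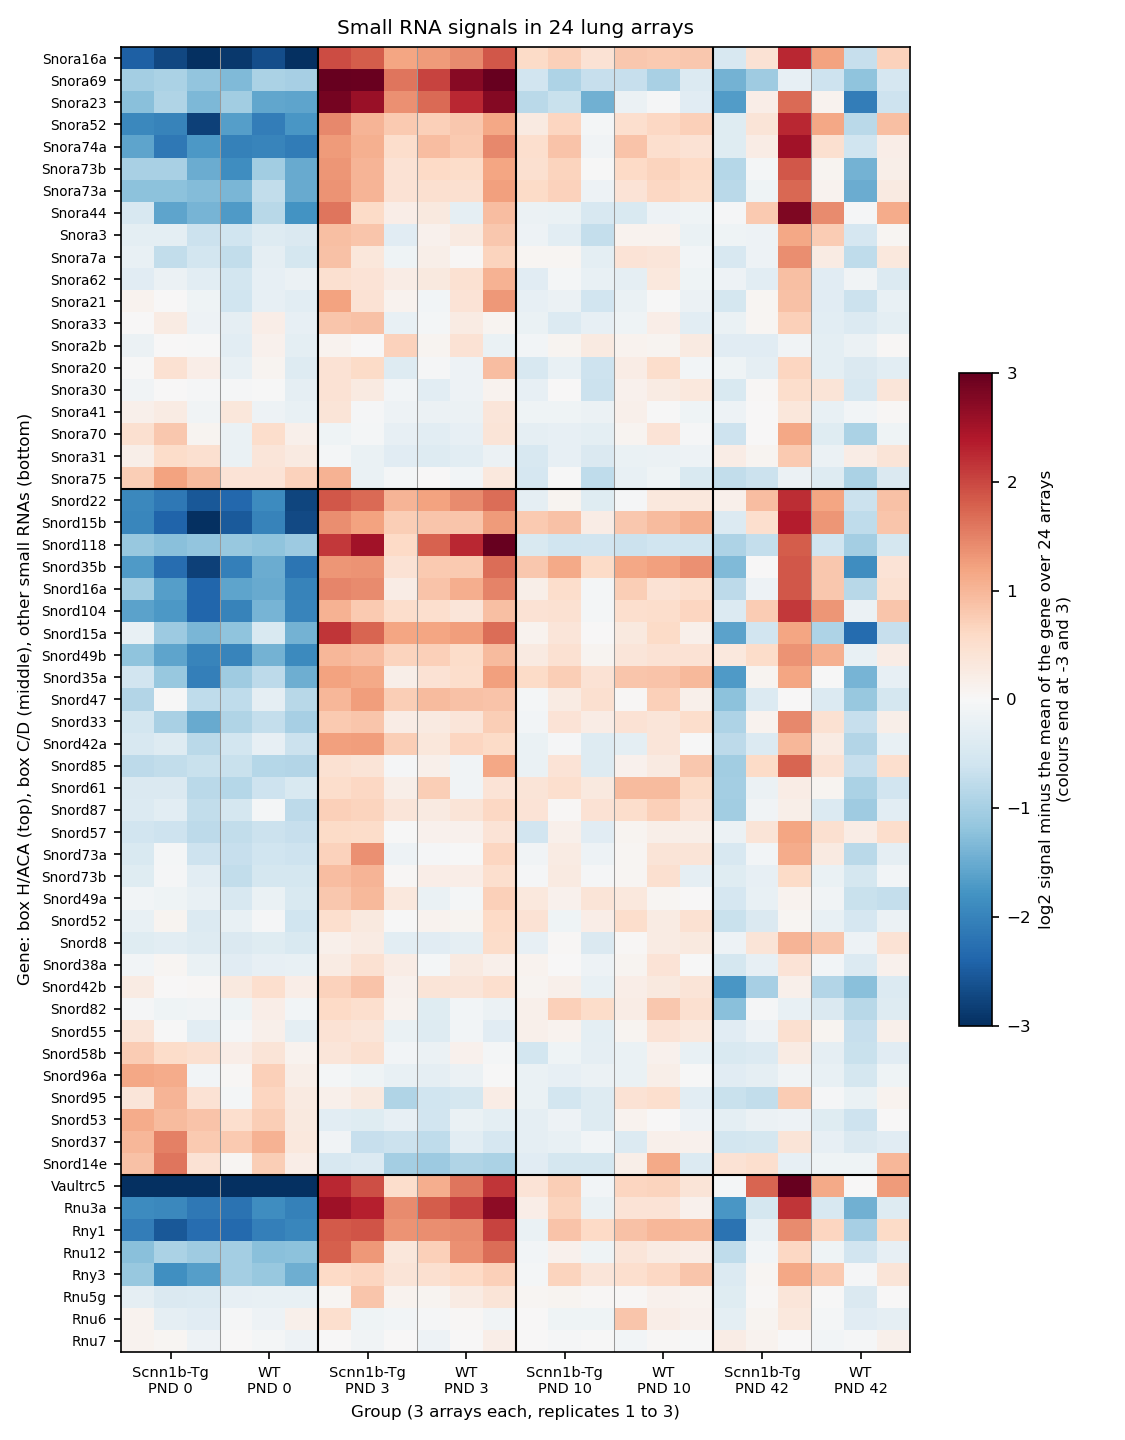
Log2 signal of the 59 small RNAs (rows, ordered within class by their change between PND 0 and PND 3) in the 24 arrays (columns, 3 per group, Scnn1b-Tg left of WT at each age), as the difference from each gene's mean over the 24 arrays. Most rows turn from blue at PND 0 to red at PND 3 in both genotypes, Snord14e and Snord37 run the other way, and Scnn1b-Tg replicate 3 at PND 42 is redder than the other arrays of its group.

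Vaultrc5, the vault RNA, had the largest rise of the 59. In Scnn1b-Tg lungs it read 3.72, 3.58 and 3.79 at PND 0, 9.24, 8.92 and 7.52 at PND 3, 7.40, 7.71 and 6.89 at PND 10, and 6.91, 8.73 and 10.16 at PND 42. In WT lungs the readings were 3.71, 3.71 and 3.71 at PND 0, 8.07, 8.59 and 9.13 at PND 3, 7.62, 7.66 and 7.37 at PND 10, and 8.12, 6.98 and 8.27 at PND 42. It was low in all 6 arrays at PND 0 and above those in all 18 later arrays. Readings under 5 cannot be told apart from background here, so the size of its fold change from PND 0 is uncertain. The same holds for Rnu3a, Snora69 and Snord118, whose PND 0 readings given below also lie under 5. The change from PND 0 to PND 3 was 4.86 ± 0.53 (SE, 29.1-fold, limma adjusted p = 2.4e-07) in Scnn1b-Tg lungs and 4.89 ± 0.53 (29.6-fold, adjusted p = 2.8e-07) in WT lungs. At PND 42 it was still higher than at PND 0, by 4.90 ± 0.53 in Scnn1b-Tg and 4.08 ± 0.53 in WT lungs (4.13 without Scnn1b-Tg replicate 3 and 4.48 without WT replicate 2).

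The Y RNAs rose as well. Rny1 read 9.93, 9.98 and 9.43 at PND 3 in Scnn1b-Tg lungs, against 6.01, 5.55 and 5.80 at PND 0, and in WT lungs 9.49, 9.50 and 10.12 at PND 3, against 5.75, 6.03 and 6.14 at PND 0. No array at PND 3 came near those at PND 0. The rise was 4.0 ± 0.55 in Scnn1b-Tg (adjusted p = 4.7e-06) and 3.73 ± 0.55 in WT lungs (adjusted p = 1.2e-05). Rny3 was already bright at birth (9.96 to 10.66 in Scnn1b-Tg and 10.35 to 10.78 in WT lungs) and rose by 2.09 ± 0.28 and 1.81 ± 0.28 (adjusted p = 3.4e-06 and 2.1e-05). Of the proteins that bind these RNAs and of vault proteins, 3 of 6 listed genes were measured (Ro60, Ssb and Mvp), and 0 of the 3 rose or fell in either genotype by limma, with 0 above and 1 below at an unadjusted p under 0.05 in Scnn1b-Tg lungs and 0 and 2 in WT lungs.

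Of the 5 Rnu genes, 2 rose. Rnu3a, a U3 RNA needed for the first cuts of the ribosomal RNA precursor, read 8.81, 8.60 and 7.67 at PND 3 in Scnn1b-Tg lungs, against 4.36, 4.34 and 4.12 at PND 0, and 8.08, 8.31 and 8.94 at PND 3 in WT lungs, against 4.04, 4.39 and 4.22 at PND 0. The groups were far apart, with a rise of 4.09 ± 0.57 (adjusted p = 5e-06) in Scnn1b-Tg and 4.23 ± 0.57 (18.7-fold, adjusted p = 3.6e-06) in WT lungs. Rnu12, the U12 RNA of the minor spliceosome, rose by 2.23 ± 0.30 in Scnn1b-Tg (adjusted p = 3.8e-06) and 2.41 ± 0.30 in WT lungs (adjusted p = 1.5e-06). Rnu5g, a U5 RNA, changed by 0.70 ± 0.17 and 0.47 ± 0.17, short of 2-fold (adjusted p = 0.0023 and 0.033). Rnu6 (0.26 ± 0.19 and -0.02 ± 0.19, adjusted p = 0.26 and 0.95) and Rnu7 (-0.02 ± 0.10 and 0.10 ± 0.10, adjusted p = 0.86 and 0.45) did not pass the test. Rnu7 stayed between 3.19 and 3.57 in all 24 arrays. U3, U5 and U6 have near-identical copies in the genome, so their rows cannot be tied to 1 copy.

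Box H/ACA and box C/D RNAs took part in like shares. Of 20 Snora genes, 8 rose and 0 fell between PND 0 and PND 3, the same counts in both genotypes (at an unadjusted p under 0.05, 11 were above and 2 below in Scnn1b-Tg, 12 above and 1 below in WT lungs). Of 31 Snord genes, 15 rose and 3 fell in Scnn1b-Tg lungs, and 12 rose and 2 fell in WT lungs. The median change was 0.76 for Snora and 1.00 for Snord genes in Scnn1b-Tg lungs, and 0.90 and 0.89 in WT lungs. The order of the classes was thus not the same in both genotypes, and it changed with the rows that were kept. Without rows under 5 in every group mean the Snora medians were 1.41 in Scnn1b-Tg and 1.34 in WT lungs. The Snord medians then moved by less than their SD between arrays (0.398). A row could pass this limit through its PND 3 mean alone, so the larger Snora medians are partly set by the filter and not read as a result. These counts describe the classes and were not tested against each other.

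**Figure D2:**
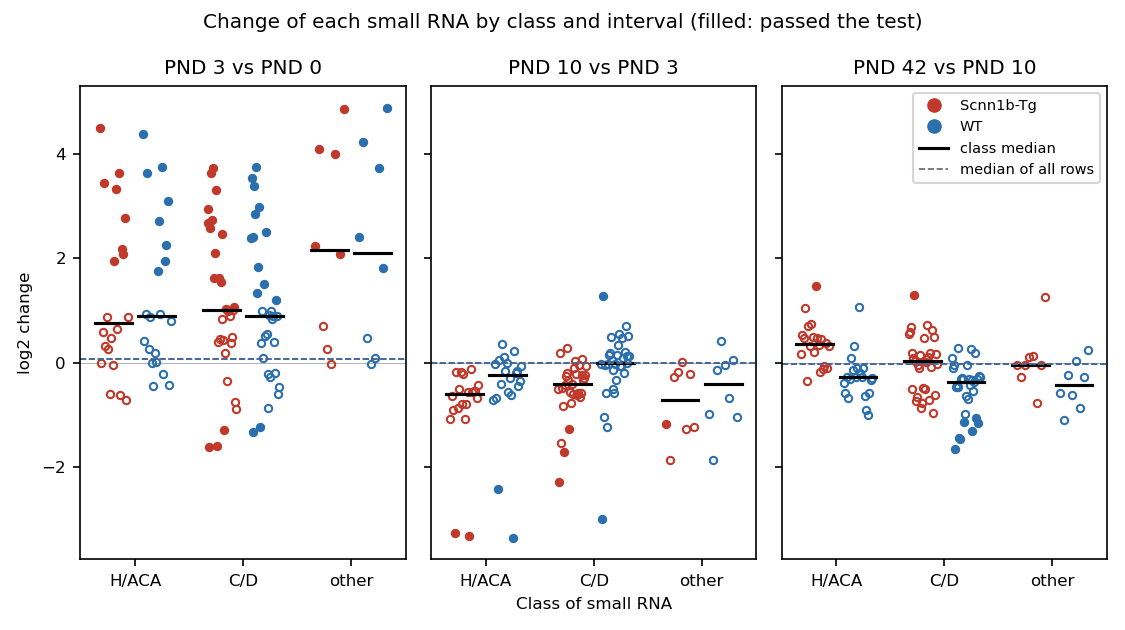
Log2 change of each small RNA in 3 successive age intervals (later minus earlier age), by class and genotype (Scnn1b-Tg left of WT); filled points passed the test, bars are class medians and dashed lines the medians of all 21789 rows. The largest changes are the rises from PND 0 to PND 3 in every class, 8 Snora genes fill in each genotype, and most points from PND 3 to PND 10 are unfilled.

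Among the box H/ACA RNAs, Snora16a rose most. It read 10.90, 10.74 and 10.12 at PND 3 in Scnn1b-Tg lungs, against 6.48, 6.19 and 5.63 at PND 0, and 10.20, 10.36 and 10.79 at PND 3 in WT lungs, against 6.03, 6.28 and 5.92 at PND 0. The rise was 4.49 ± 0.46 (22.4-fold, adjusted p = 1.1e-07) and 4.37 ± 0.46 (20.7-fold, adjusted p = 2.1e-07), and at PND 42 Snora16a remained 3.57 ± 0.46 and 3.26 ± 0.46 above PND 0 (2.82 without Scnn1b-Tg replicate 3 and 3.81 without WT replicate 2). Snora44, which lies in the same gene, Snhg12, rose by 1.95 ± 0.52 and 1.76 ± 0.52. Snora52, in the ribosomal protein gene Rplp2, rose by 3.32 ± 0.48 and 2.71 ± 0.48. Snora73a and Snora73b (U17), which are needed for cutting out the small subunit rRNA, lie together in Snhg3 and rose by 2.18 and 2.07 in Scnn1b-Tg and by 1.94 and 2.25 in WT lungs (SE 0.47 each), but they are near-identical and their signals may not be separate. Snora74a (U19) rose by 2.78 ± 0.46 and 3.09 ± 0.46. The other 12 Snora genes lay between -0.71 (Snora75) and 0.93 (Snora21) and were not called.

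Among the box C/D RNAs, Snord22 (U22, needed for maturation of the small subunit rRNA) was the gene with the largest rise in both genotypes. Its readings at PND 3 were 10.82, 10.66 and 9.98 in Scnn1b-Tg lungs, against 7.04, 6.81 and 6.42 at PND 0, and 10.17, 10.37 and 10.63 in WT lungs, against 6.61, 7.07 and 6.22 at PND 0. The groups did not overlap, and the rise was 3.73 ± 0.41 (13.3-fold, adjusted p = 2.8e-07) and 3.76 ± 0.41 (13.5-fold, adjusted p = 3.2e-07). Snord15b (3.64 ± 0.51 and 3.39 ± 0.51) and Snord15a (2.59 ± 0.49 and 2.41 ± 0.49) lie in the same ribosomal protein gene, Rps3. Snord16a, in Rpl4, rose by 2.73 ± 0.50 and 2.84 ± 0.50, Snord104 by 2.68 ± 0.42 and 2.39 ± 0.42, and Snord49b by 2.46 ± 0.27 and 2.51 ± 0.27. Snord49a, from the same gene as Snord49b, changed by 0.84 ± 0.21 and 0.52 ± 0.21 and was not called. Snord15a and Snord15b and the other pairs named by letter have related sequences, so part of a signal can be shared.

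Just inside the 2-fold limit in Scnn1b-Tg lungs were Snord73a (1.01, adjusted p = 0.021) and Snord57 (1.04, adjusted p = 0.00097), and just outside it Snord61 (1.00, adjusted p = 0.0039), whose change fell short of 1 in the third decimal. In WT lungs Snord42a (1.00, adjusted p = 0.015) and Snord61 (0.99, adjusted p = 0.0043) missed the limit by as little. Of the genes that rose in 1 genotype only, Snord42a, Snord57, Snord73a and Snord87 in Scnn1b-Tg lungs and Snord85 in WT lungs had a higher mean at PND 3 in both genotypes, and the difference between genotypes was not called for any.

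The 2 box C/D RNAs that fell in both genotypes lie in genes for abundant proteins of translation and folding. Snord14e (U14, needed for cutting and methylating the small subunit rRNA) lies in Hspa8 and read 4.09, 4.16 and 3.56 at PND 3 in Scnn1b-Tg lungs, against 5.46, 6.18 and 5.01 at PND 0, and 3.48, 3.68 and 3.63 at PND 3 in WT lungs, against 4.64, 5.33 and 4.79 at PND 0. The groups did not overlap, and the change was -1.61 ± 0.34 (adjusted p = 0.00058) in Scnn1b-Tg and -1.32 ± 0.34 (adjusted p = 0.0034) in WT lungs. Snord37, in the elongation factor gene Eef2, fell by 1.59 ± 0.24 (adjusted p = 1.2e-05) in Scnn1b-Tg lungs and by 1.23 ± 0.24 (adjusted p = 0.00022) in WT lungs. Snord53, in Wdr43, fell by 1.29 ± 0.14 (adjusted p = 2.7e-07) in Scnn1b-Tg lungs, and in WT lungs its change of -0.87 ± 0.14 (adjusted p = 4e-05) was under 2-fold.

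**Figure D3:**
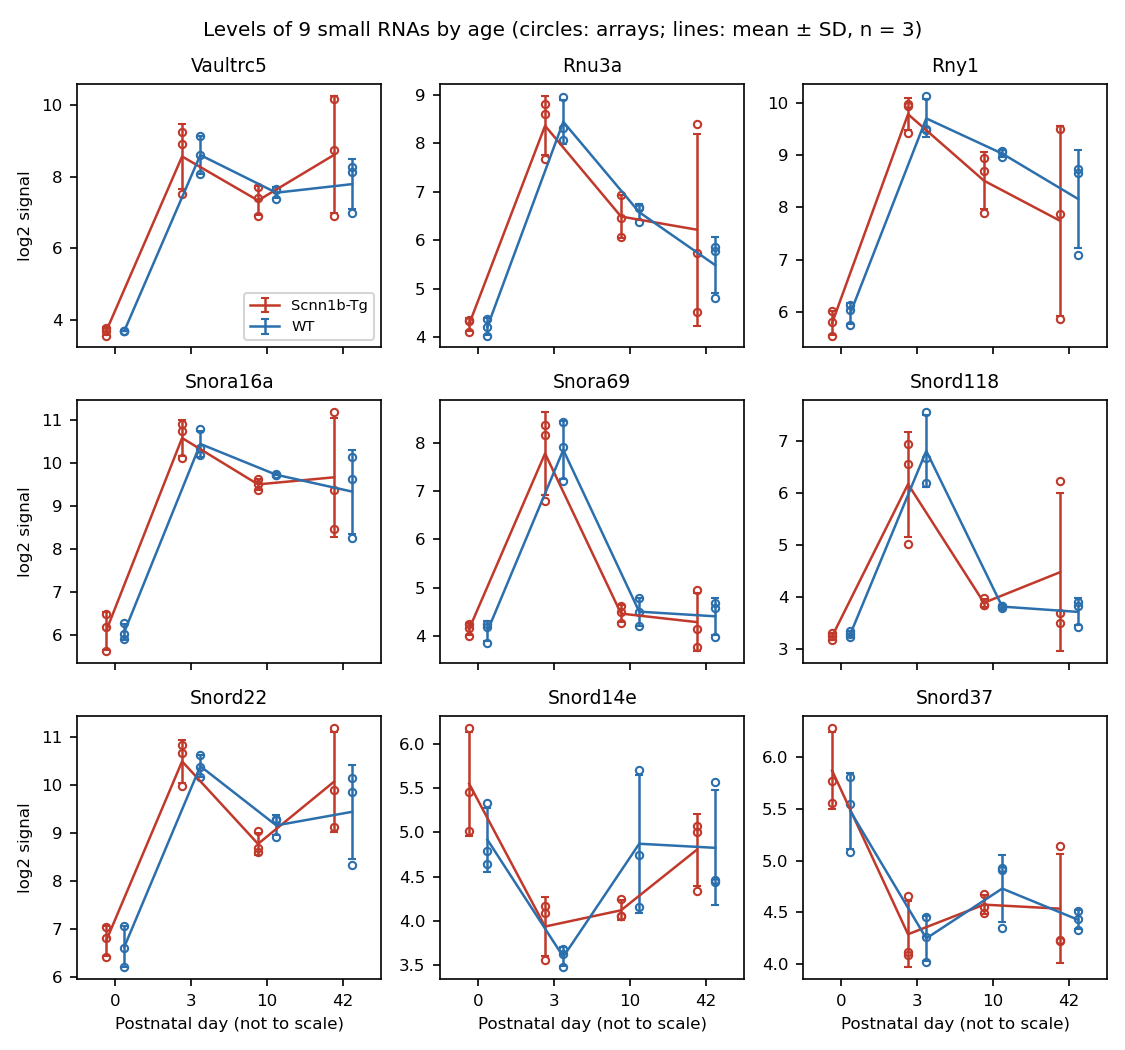
Log2 signal of 9 small RNAs at PND 0, 3, 10 and 42 (age axis not to scale) in Scnn1b-Tg (red, left) and WT (blue, right) lungs; circles are arrays and lines join means ± SD (n = 3). The means of Vaultrc5, Rnu3a, Rny1, Snora16a and Snord22 lie above their PND 0 mean at each later age, with 1 Scnn1b-Tg array of Rny1 at PND 42 (5.87) within its PND 0 range, Snora69 and Snord118 come back down by PND 10, and Snord14e and Snord37 have their lowest mean at PND 3.

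Where the RNA lay went with how often it rose. Of the 14 RNAs in containing genes that make no protein, 10 rose in Scnn1b-Tg and 9 in WT lungs and 0 fell (medians 2.01 and 1.85). At an unadjusted p under 0.05 by limma, 13 of these 14 were above and 0 below in each genotype. Of the 21 RNAs in ribosomal protein genes, 10 and 8 rose (medians 0.90 and 0.92). Of the 16 in other protein-coding genes, 2 rose and 3 fell in Scnn1b-Tg lungs and 2 rose and 2 fell in WT lungs (medians -0.02 and -0.11). Of the 8 RNAs with no containing gene, 6 rose in each genotype (medians 2.58 and 2.97). The counts of rises come from a description of the members, to be read beside the 2.26% and 1.96% of all rows that rose. The count at an unadjusted p has no such share beside it and is not read as a result.

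Length went with the rise too. Of 30 RNAs with an annotated length of at least 100 nt, 17 rose and 0 fell in each genotype (at an unadjusted p under 0.05, 2 were below in Scnn1b-Tg and 1 in WT lungs). Of 29 shorter ones, 11 rose and 3 fell in Scnn1b-Tg lungs and 8 rose and 2 fell in WT lungs. Across the 59 genes the correlation of length and change was r = 0.56 (Spearman's rho = 0.49) in Scnn1b-Tg and r = 0.60 (rho = 0.51) in WT lungs; genes measured on the same arrays are not independent points. Length and class overlap strongly, since 19 of 20 Snora genes but 4 of 31 Snord genes reached 100 nt, and all 4 of those long Snord RNAs rose in both genotypes (medians 3.29 and 3.46). The RNA had been purified on Qiagen columns and precipitated with ethanol, and the part that recovery of short RNA plays in these values was not tested.

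The containing genes themselves did not rise with the RNAs they carry. For 27 RNAs the containing gene had a row of its own (23 genes). At PND 3 relative to PND 0, 9 of these 27 RNAs rose in Scnn1b-Tg and 6 in WT lungs, while by limma 0 of the 23 containing genes rose in either, and 2 and 1 fell. Of all rows, 2.26% and 1.96% rose and 8% and 7.79% fell. At an unadjusted p under 0.05 without the 2-fold limit, 9 containing genes were above and 4 below in Scnn1b-Tg lungs, and 7 above and 5 below in WT lungs. A large share of all rows also lay under that p in this interval, so these counts are not read as a result. The median change of the 27 RNAs was 0.58 in Scnn1b-Tg and 0.84 in WT lungs, beside 0.17 and 0.08 for the containing genes. Rps3 (0.89 and 0.67), Rplp2 (-0.08 and -0.07), Rpl4 (0.17 and 0.08) and Ipo7 (-0.71 and -0.41) are the containing genes of Snord15b, Snora52, Snord16a and Snora23. Gas5, which carries Snord47, changed by 0.09 and -0.10 while Snord47 rose by 1.55 ± 0.28 and 1.52 ± 0.28. Hspa8 (-0.16 and -0.18) and Eef2 (-0.11 and -0.60), which carry Snord14e and Snord37, were not called. Eef2 in WT lungs passed the adjusted p (limma, 0.00044) but not the 2-fold limit. The correlation of the 27 pairs of changes was r = 0.13 in Scnn1b-Tg and 0.23 in WT lungs (rho 0.18 and 0.27), with 4 containing genes entering 2 pairs each.

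**Figure D4:**
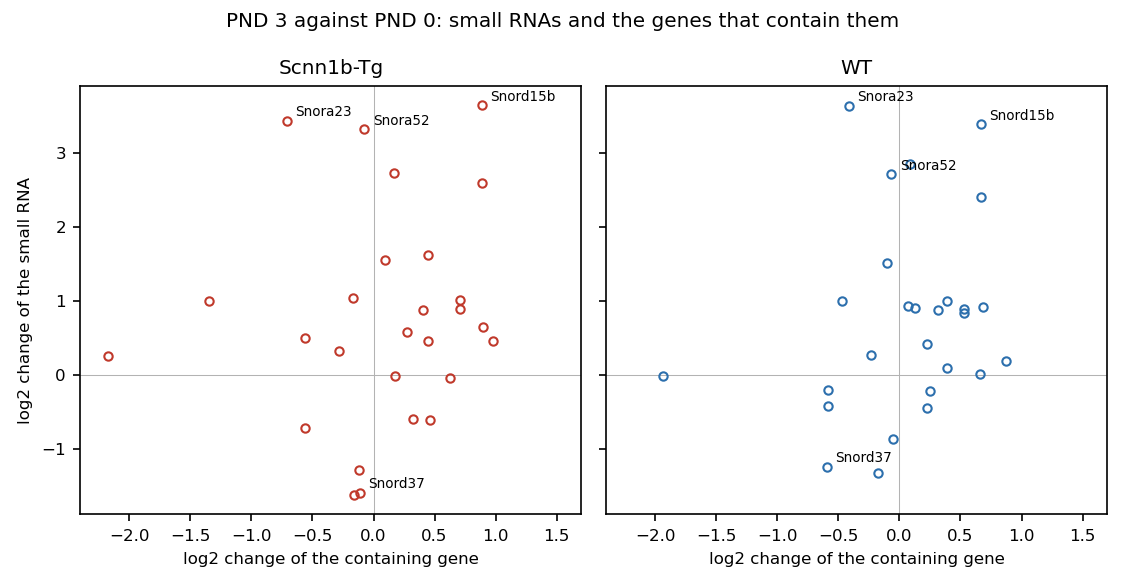
Log2 change from PND 0 to PND 3 of 27 small RNAs (vertical axis) against that of the genes that contain them (horizontal axis), in Scnn1b-Tg (left) and WT (right) lungs. Snora23, Snora52 and Snord15b lie high on the vertical axis, above 2.7 in both panels, while their containing genes lie between -0.71 and 0.89.

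Genes of the machinery around small RNAs were followed in the same interval. Of all rows, 2.26% in Scnn1b-Tg and 1.96% in WT lungs rose, and 8% and 7.79% fell. The lists are small and were not tested against these shares. Among 6 genes for H/ACA proteins, Nhp2 rose by 1.25 ± 0.15 in Scnn1b-Tg and 1.24 ± 0.15 in WT lungs and 0 fell (unadjusted, 2 were above and 1 below in Scnn1b-Tg, 4 above and 1 below in WT lungs). Among the 5 measured of 6 C/D protein genes (Nop56, Nop58 and others), 0 rose and 0 fell by limma, with 2 above in Scnn1b-Tg and 3 in WT lungs at an unadjusted p under 0.05. Of 11 assembly factors, 1 rose, Znhit3, by 1.52 ± 0.14 and 1.44 ± 0.14 (unadjusted, 4 and 5 were above and 1 below in each genotype). Of 17 measured genes for Sm proteins and partners, which coat spliceosomal RNAs, Snrpd2 (1.8 ± 0.18 and 1.5 ± 0.18) and Gemin6 (1.16 ± 0.26 and 1.47 ± 0.26) rose in both genotypes, and Snrnp70 fell by 1.43 ± 0.13 in Scnn1b-Tg lungs. Unadjusted, 11 of the 17 were above and 2 below in Scnn1b-Tg lungs, and 12 above and 2 below in WT lungs. Of 17 measured genes for RNA polymerase III and its factors, 0 rose and 4 fell in Scnn1b-Tg and 1 rose and 2 fell in WT lungs, with medians of -0.35 and -0.37. At an unadjusted p under 0.05, 4 were above and 10 below in Scnn1b-Tg lungs, and 3 above and 9 below in WT lungs. Polr3a, the largest subunit, fell by 1.27 ± 0.12 and 1.08 ± 0.12 and Bdp1 by 1.59 ± 0.19 and 1.35 ± 0.19. Of 22 ribosome biogenesis genes 0 were called in either genotype by limma (at an unadjusted p under 0.05, 4 above and 11 below in Scnn1b-Tg, 5 above and 10 below in WT lungs). Among the 7 measured of 17 listed long transcripts that carry small nucleolar RNAs, Meg3 (-5.01 ± 0.27 and -4.63 ± 0.27) and Rian (-1.65 ± 0.33 and -1.64 ± 0.33), from an imprinted cluster whose small RNAs are not among the 59, fell.

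From PND 3 to PND 10 a small group of RNAs came down again. In Scnn1b-Tg lungs 0 of 59 rose and 6 fell at PND 10 relative to PND 3, where 0.817% of all rows rose and 0.271% fell. In WT lungs 1 rose and 3 fell, where 1.05% rose and 0.239% fell. At an unadjusted p under 0.05, 0 were above and 23 below in Scnn1b-Tg lungs, and 5 above and 10 below in WT lungs. Snora69, Snora23 and Snord118 fell in both genotypes, and Rnu12, Snord22 and Snord42a fell in Scnn1b-Tg lungs. Snora69 kept its call in both genotypes under every alternative and with each array left out, Snora23 in Scnn1b-Tg lungs only (adjusted p up to 0.059 in WT) and Snord118 in WT lungs only (up to 0.076 in Scnn1b-Tg). Since both intervals use the PND 3 arrays, a rise and a fall of the same gene are not independent of each other.

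Snora69, an H/ACA RNA in the ribosomal protein gene Rpl39, gave the clearest peak. In Scnn1b-Tg lungs it read 4.17, 4.25 and 4.0 at PND 0, 8.37, 8.17 and 6.80 at PND 3, 4.62, 4.27 and 4.50 at PND 10, and 3.77, 4.14 and 4.95 at PND 42. In WT lungs it read 3.86, 4.25 and 4.19 at PND 0, 7.21, 7.92 and 8.42 at PND 3, 4.50, 4.21 and 4.79 at PND 10, and 4.57, 3.97 and 4.68 at PND 42. The 6 arrays at PND 3 stood above the other 18, which all lay under 5. The rise was 3.63 ± 0.34 in Scnn1b-Tg and 3.75 ± 0.34 in WT lungs (adjusted p = 3.3e-08 in both), and the fall that followed -3.31 ± 0.34 (adjusted p = 5e-06) and -3.35 ± 0.34 (adjusted p = 5.1e-06). At PND 42 it differed from PND 0 by 0.14 ± 0.34 and 0.31 ± 0.34 (adjusted p = 0.74 and 0.44).

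Snord118 (U8, needed for the large subunit rRNAs) read 6.55, 6.94 and 5.02 at PND 3 in Scnn1b-Tg lungs, against 3.29, 3.17 and 3.25 at PND 0, and 6.19, 6.68 and 7.55 at PND 3 in WT lungs, against 3.28, 3.21 and 3.33 at PND 0. By PND 10 it lay between 3.83 and 3.97 in Scnn1b-Tg and between 3.78 and 3.82 in WT lungs, below every array at PND 3. The fall was -2.29 ± 0.50 (adjusted p = 0.012) and -3.0 ± 0.50 (adjusted p = 0.00059). Snora23, in the importin gene Ipo7, rose by 3.44 ± 0.58 and 3.64 ± 0.58 and then changed by -3.25 ± 0.58 (adjusted p = 0.0032) and -2.43 ± 0.58 (adjusted p = 0.015). Rnu3a changed by -1.87 ± 0.57 and -1.86 ± 0.57 after its rise without passing the test (adjusted p = 0.076 and 0.062).

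The falls in Scnn1b-Tg lungs alone were -1.17 ± 0.30 for Rnu12 (adjusted p = 0.033), -1.72 ± 0.41 for Snord22 (adjusted p = 0.022) and -1.28 ± 0.32 for Snord42a (adjusted p = 0.028), beside -0.98 ± 0.30, -1.23 ± 0.41 and -0.50 ± 0.32 in WT lungs (adjusted p = 0.066, 0.097 and 0.51). In WT lungs Snord14e rose by 1.28 ± 0.34 (adjusted p = 0.03) after its fall, with readings of 4.75, 5.71 and 4.16 at PND 10 against 3.48, 3.68 and 3.63 at PND 3, while in Scnn1b-Tg lungs it read 4.25, 4.06 and 4.06 at PND 10 against 4.09, 4.16 and 3.56 at PND 3 (0.18 ± 0.34, adjusted p = 0.91). The difference of these 2 changes was -1.09 ± 0.48 (adjusted p = 0.72). The count of 6 falls in Scnn1b-Tg lungs was 2 without replicate 1 or 2 at PND 3 or without replicate 3 at PND 10, and 3 without replicate 1 at PND 10. The 1 rise in WT lungs was lost without any of 5 of the 6 WT arrays of the interval, and the 3 falls became 5 when Scnn1b-Tg replicate 3 at PND 42 was left out of the shared fit.

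From PND 10 to PND 42 the outcome rested on single arrays. In Scnn1b-Tg lungs 2 of the 59 rose at PND 42 relative to PND 10 and 0 fell, where 1.79% of all rows rose and 3.38% fell (unadjusted, 6 were above and 8 below). The 2 were Snora44 (1.46 ± 0.52, adjusted p = 0.038) and Snord22 (1.29 ± 0.41, adjusted p = 0.021). Without replicate 3 at PND 42 the counts were 0 and 8, without replicate 1 at PND 42 the count of rises was 7, and without replicate 1, 2 or 3 at PND 10 it was 0, 1 and 0. Without replicate 2 at PND 42, or replicate 1 at PND 10, 1 gene fell. Snora44 shows the spread: it read 6.82, 7.65 and 9.66 at PND 42, against 6.69, 6.65 and 6.39 at PND 10.

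In WT lungs 0 of the 59 rose at PND 42 relative to PND 10 and 6 fell, where 1.7% of all rows rose and 3.84% fell (unadjusted, 0 were above and 15 below). All 6 were box C/D RNAs: Snord15a (-1.65 ± 0.49), Snord35a (-1.45 ± 0.50), Snord61 (-1.30 ± 0.26), Snord87 (-1.15 ± 0.25), Snord42b (-1.13 ± 0.29) and Snord82 (-1.06 ± 0.23). Without WT replicate 2 at PND 42, 1 gene fell. Only Snord61, in Rbmx, kept its call under every alternative and with each array left out: it read 6.82, 5.78 and 6.17 at PND 42, against 7.68, 7.69 and 7.31 at PND 10 (adjusted p = 0.0007). Its containing gene Rbmx fell in the same interval by 1.54 ± 0.18 (limma adjusted p = 2.2e-06). In Scnn1b-Tg lungs Rbmx fell by 1.05 ± 0.18 (adjusted p = 0.00015), where Snord61 was not called. When Scnn1b-Tg replicate 3 at PND 42 was left out of the shared fit, 1 gene rose in WT lungs.

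Measured over the whole span, many of the RNAs that rose by PND 3 were still above their level at birth. At PND 42 relative to PND 0, 21 rose and 3 fell in Scnn1b-Tg lungs, where 2.48% of all rows rose and 8.7% fell, and 14 rose and 3 fell in WT lungs, where 1.71% rose and 9.73% fell. Of the 28 and 25 genes that rose by PND 3, 20 and 13 were also called higher at PND 42, and 24 and 20 had their highest group mean at PND 3. These genes were picked for a high PND 3 mean, and both comparisons use the same PND 0 arrays. The counts are thus partly set by that choice and are a description only. Snora75, in the nucleolin gene Ncl, fell over the whole span in both genotypes (-1.49 ± 0.25 and -1.11 ± 0.25, adjusted p = 4.9e-05 and 0.00096), as did Snord37 (-1.34 ± 0.24 and -1.05 ± 0.24). In Scnn1b-Tg lungs without replicate 3 at PND 42 both kept their calls (-1.66 and -1.64). In WT lungs without replicate 2 at PND 42, Snora75 changed by -0.93 and lost its call and Snord37 by -1.01, and Snord37 lost its call without WT replicate 2 at PND 0. The rises of Rnu3a (1.95 ± 0.57) and Rny1 (1.96 ± 0.55) in Scnn1b-Tg lungs were lost without replicate 3 at PND 42 (0.86 and 1.08, adjusted p = 0.06 each), and in WT lungs Rny1 rose by 2.19 ± 0.55 while Rnu3a changed by 1.27 ± 0.57 (adjusted p = 0.061) and was called without WT replicate 2 at PND 42 (1.61, adjusted p = 0.039). Without Scnn1b-Tg replicate 3 at PND 42 the counts in Scnn1b-Tg lungs were 12 and 7, and without Scnn1b-Tg replicate 3 at PND 0 the count of falls was 5. Without WT replicate 2 at PND 42 the count of falls in WT lungs was 1. With each array left out in turn, the rises ranged from 12 to 26 in Scnn1b-Tg lungs and from 13 to 20 in WT lungs. The 21 and 14 rises are therefore not read as a difference between genotypes.

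The genotypes were compared at each age, which asks whether the transgene changes these RNAs. By limma 0 of the 59 were called at PND 0, 3, 10 or 42, where 0.0138%, 0.0184%, 0.151% and 0.34% of all rows were called at these ages. At an unadjusted p under 0.05 there were 1, 2, 4 and 2 members, and the count of calls was 0 under every alternative and with each array left out. At PND 10, 56 of the 59 had a lower mean in Scnn1b-Tg than in WT lungs, and the share of all rows that did was not counted. The median difference was -0.24, beside -0.002 for all rows. The medians of the 59 genes in single arrays were 6.15, 6.37 and 6.03 in Scnn1b-Tg and 6.41, 6.49 and 6.39 in WT lungs, which did not overlap. Members read on the same arrays share their RNA, so the count of 56 does not rest on 59 separate observations. The lowest p at PND 10 was that of Rnu6, at 4.64, 4.52 and 4.50 in Scnn1b-Tg and 5.48, 4.84 and 4.77 in WT lungs (-0.48 ± 0.19, adjusted p = 0.38). With any 1 array of PND 10 left out, 49 to 57 members were lower in Scnn1b-Tg lungs.

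At PND 42 the difference pointed the other way, with 50 of 59 members higher in Scnn1b-Tg lungs and a median difference of 0.23, beside 0.002 for all rows. The array medians were 5.33, 5.83 and 6.86 in Scnn1b-Tg and 5.78, 5.11 and 6.00 in WT lungs and overlapped. Without Scnn1b-Tg replicate 3, 18 members were higher and 41 lower in Scnn1b-Tg lungs (median -0.10), and without WT replicate 2, 27 were higher and 32 lower (median -0.03). At PND 0 and PND 3, 42 and 44 members were higher in Scnn1b-Tg lungs, with medians of 0.07 and 0.10, beside -0.016 and 0.001 for all rows. Leaving out 1 array moved these counts to between 33 and 49 at PND 0 and between 28 and 57 at PND 3.

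The change with age was also compared between the genotypes. In the interval from PND 0 to PND 3, 0 of the 59 differed by limma, where 0% of all rows were called, and the median of the 59 differences was 0.00, with 30 above and 29 below 0. From PND 3 to PND 10 and from PND 10 to PND 42, 0 members were called in each, where 0.00918% and 0.225% of all rows were called. At an unadjusted p under 0.05 the 3 intervals had 2, 4 and 5 members. The medians of the last 2 intervals, -0.38 and 0.51, both use the PND 10 arrays, in which the Scnn1b-Tg values were the lower ones.

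**Figure D5:**
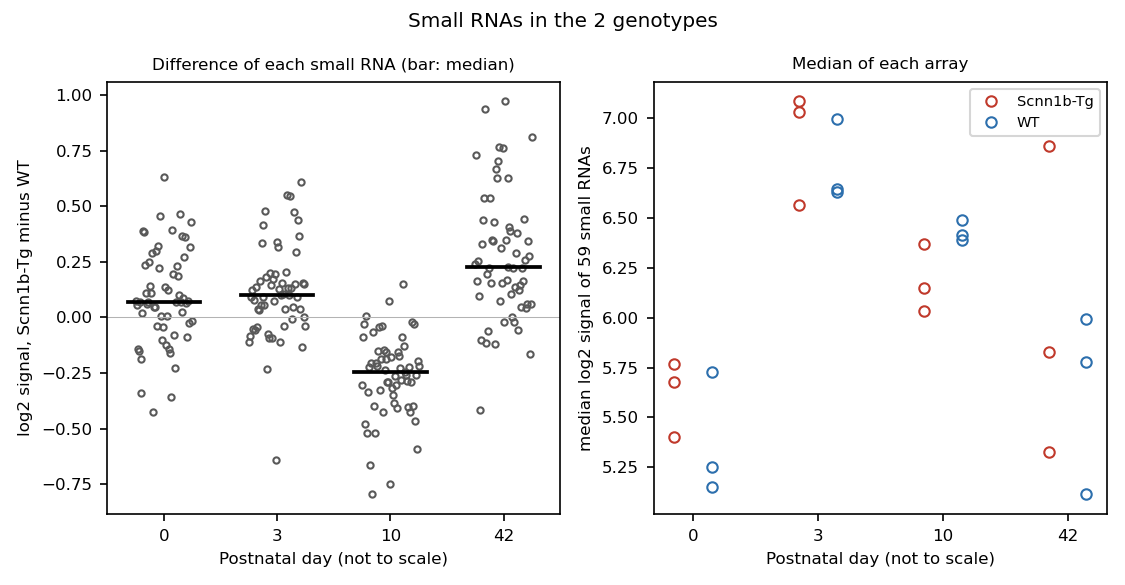
Left, difference in log2 signal (Scnn1b-Tg minus WT) of each of the 59 small RNAs at each age, with the median as a bar; right, median log2 signal of the 59 genes in each array (Scnn1b-Tg red, left; WT blue, right). Most points lie below 0 at PND 10 and above 0 at PND 42, and at PND 42 the highest array median, 6.86, belongs to Scnn1b-Tg replicate 3.

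Signals differed widely across the set, and 50 of the 59 genes had a group mean above 5 in at least 1 group (16 of 20 Snora and 28 of 31 Snord genes). For 5 genes several rows were deposited; those of Snora30 and of Snord118 were identical, and those of Snora21, Snora3 and Snord58b differed by up to 0.54 between rows. Over the same ages the markers of other cell types also moved. Both measured erythroid markers (Alas2 and Slc4a1, of 6 listed) fell from PND 10 to PND 42 in both genotypes, with a summed level of 7.61 to 8.50 in Scnn1b-Tg and 8.38 to 8.77 in WT lungs at PND 42, against 9.54 to 10.02 and 9.83 to 10.16 at PND 10. Mki67 and Top2a, of 3 listed markers of dividing cells, rose from PND 3 to PND 10 in Scnn1b-Tg lungs (1.02 ± 0.28 and 1.27 ± 0.33), where 6 of the small RNAs fell, and changed by 0.50 ± 0.28 and 0.50 ± 0.33 in WT lungs without being called. Both fell from PND 10 to PND 42 in both genotypes, and Ptprc, of 4 measured leukocyte markers, rose in Scnn1b-Tg lungs by 1.40 ± 0.18. From PND 0 to PND 3, 0 of the 2 erythroid, 0 of the 4 leukocyte, 0 of the 2 dividing-cell and 0 of the 3 thymus markers were called in either genotype by limma (1 or 0 of each list at an unadjusted p under 0.05), and Cdh5, of 3 vessel markers, fell by 1.23 ± 0.17 and 1.48 ± 0.17. Nkx2-1, of the 7 epithelial markers, changed by -0.95 ± 0.16 in Scnn1b-Tg lungs, short of 2-fold, and fell by 1.04 ± 0.16 in WT lungs. Among 4 heart muscle markers Myh6 fell in both genotypes and Myl7 rose in WT lungs. The part of cell makeup in the changes of the small RNAs was not tested.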

How the data were processed

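Per the labels and the study's methods, the authors extracted probe signals with RMA in Partek (6.5 in the labels), applied quantile normalization and deposited 1 log2 value per row and array. The deposited log2 table held 35556 rows; 21789 had exactly 1 gene in the platform annotation, 1621 several and 12146 none. It holds no detection calls, and precision was limited by the 3 arrays per group. The labels list fewer mice per pool than the methods do, so p-values measure the spread between these pools only. Group means of the 8 groups were fitted over all 24 arrays with limma 3.58.1 (R 4.3.3; 16 residual degrees of freedom), p-values were adjusted over the 21789 rows, and calls needed an adjusted p of at most 0.05 and a 2-fold change. The fit was first tested on simulated data. The members and gene lists were chosen with earlier results of these data known. Named were all Rnu, Rny and Vaultrc genes, up to 8 called Snora or Snord genes per interval with the largest change and no overlap of groups, genes called in opposite directions in successive intervals, their containing genes, Scnn1b and list genes with low p; genes at the fold limit, genes of the same containing gene and the small RNAs of the closing section were named after their values were seen. Containing genes are the shortest ones that enclose a member in RefSeq (GRCm38.p6), without regard to strand, and all 59 members matched. For Snord47, Snord87 and Snord8 a second gene also encloses the RNA. Alternatives were other normalizations, priors, row choices and array subsets, leaving out each array, and the replicate number as a block. The result of 1 gene that the rule names is not reported here.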

Additional observations from a re-analysis of the deposited data

How the results depend on the processing

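No called gene changed direction under any other setting run, and the counts from PND 0 to PND 3 stayed within 1.5 times of those given in each. Tests without eBayes gave 2 falls in Scnn1b-Tg lungs from PND 3 to PND 10 and 0 rises from PND 10 to PND 42, and 0 rises in WT lungs from PND 3 to PND 10. With only the arrays compared there were 1 rise in Scnn1b-Tg lungs from PND 10 to PND 42, 0 rises and 7 falls in WT lungs from PND 3 to PND 10, and 1 rise in WT lungs from PND 10 to PND 42. With an intensity trend and a robust prior the rises were 1 in Scnn1b-Tg lungs from PND 10 to PND 42 and 0 in WT lungs from PND 3 to PND 10. Repeating the quantile normalization, or subtracting array medians, gave 1 fall in Scnn1b-Tg lungs from PND 10 to PND 42. With all rows tested, Scnn1b-Tg lungs had 3 falls from PND 3 to PND 10 and 1 rise from PND 10 to PND 42, and WT lungs 0 rises from PND 3 to PND 10. Without rows under 5 in every group mean, which leaves 16 of 20 Snora genes, the Snora median from PND 0 to PND 3 was 1.41 in Scnn1b-Tg and 1.34 in WT lungs, and over the whole span 0.73 in Scnn1b-Tg lungs. Rows could pass this limit through a high mean at a later age alone, so these larger medians are partly set by the filter. The cause of these shifts was not tested beyond the rows or arrays removed.

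Leaving out each array in turn, the counts in Scnn1b-Tg lungs ranged from 2 to 8 falls from PND 3 to PND 10, from 0 to 7 rises and 0 to 8 falls from PND 10 to PND 42, and from 12 to 26 rises and 3 to 7 falls over the whole span. In WT lungs they ranged from 0 to 1 rise and 2 to 5 falls from PND 3 to PND 10, and from 0 to 1 rise and 1 to 9 falls from PND 10 to PND 42. Over the whole span they ranged from 13 to 20 rises and 1 to 4 falls. In Scnn1b-Tg lungs the median of the Snora genes ranged from -0.032 to 0.68 from PND 10 to PND 42 and from -0.028 to 0.52 over the whole span, and that of the Snord genes from -0.37 to 0.17 from PND 10 to PND 42; each of these lowest values came without Scnn1b-Tg replicate 3 at PND 42. With the replicate number as a block every count of members was the one given, for example 28 and 25 rises from PND 0 to PND 3. Samples of the same number in different groups did not deviate together (mean r = 0.03, range -0.26 to 0.30), so the numbers were not used as pairs. The deposited values carry no detection calls, so a row under 5 cannot be told apart from background here, and with 3 arrays a group the precision is limited by their number.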

Other observations

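Among genes with 1 row that make other small RNAs without protein, and that the symbol rule left out, Rmrp and Rpph1, the RNA parts of the ribonucleases MRP and P, also rose at PND 3 relative to PND 0. Rmrp changed by 2.66 ± 0.34 (SE, limma adjusted p = 1.7e-06) in Scnn1b-Tg and by 2.48 ± 0.34 (adjusted p = 4.6e-06) in WT lungs, and Rpph1 by 1.99 ± 0.23 (adjusted p = 3.7e-07) and 1.79 ± 0.23 (adjusted p = 1.7e-06). Terc, the telomerase RNA (0.35 ± 0.10 and 0.36 ± 0.10), and Rn7sk, which binds the elongation factor P-TEFb (0.57 ± 0.28 and 0.43 ± 0.28), changed by under 2-fold from PND 0 to PND 3. Of the RNAs of Cajal bodies, Scarna13 rose in Scnn1b-Tg lungs by 1.05 ± 0.36 (adjusted p = 0.02) and changed by 0.81 ± 0.36 in WT lungs (adjusted p = 0.069), while Scarna8 (0.41 ± 0.16 and 0.65 ± 0.16) and Scarna17 (-0.72 ± 0.31 and -0.85 ± 0.31) were not called. These genes were chosen after their values were seen.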
